A study of Mus musculus with 12 samples.

Results

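Luminal epithelial cells line the ducts of the mammary gland. They were chosen by their own counts: a barcode was luminal if it held 1 or more UMIs of Epcam, 3 or more of Krt8 and Krt18 together, and none of Ptprc, Pecam1 or Pdgfra. Barcodes under 500 genes, under 1000 UMIs or over 5% mitochondrial UMIs were left out first. Of 58620 barcodes in 12 libraries, 46257 passed the quality limits, and 145 of these (0.313%) were luminal. A cell with at least 1 UMI of Pgr, Prlr or Esr1 was called hormone-sensing. This held for 110 cells, and the other 35 are described apart.

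The series profiled the 4th mammary gland of 43-week-old C57BL/6J mice by single-cell RNA-seq, with 1 library per condition. The intact group received no 4-vinylcyclohexene diepoxide (VCD), a compound that destroys small ovarian follicles. All other groups were injected with VCD at 160 mg/kg/day for 15 days, and their experimental diet began 100 days after VCD onset. The 4 libraries without hormone came from mice fed the control diet (no hormone 1, VCD_Vehicle), a low dose of polybrominated diphenyl ethers (PBDEs, flame retardants; no hormone 2), the control diet with possible PBDE from the cage environment (no hormone 3, NormEnv), and a high dose of PBDEs (no hormone 4). The 3 E2 libraries came from mice given 17β-estradiol at 1 µg/day for 1 week, on the control diet (E2 1), low PBDEs (E2 2) and high PBDEs (E2 3). The 3 E2 + P4 libraries came from mice also given progesterone at 1 mg/day and carry the same diets in the same order. The E2 + ICI library came from mice on the control diet given E2 and, once, 5 mg of ICI, a drug that degrades the estrogen receptor. Low PBDEs were 0.05 mg/kg/day of PBDE-47, 0.0028 of PBDE-100 and 0.0063 of PBDE-153 for 20 weeks. High PBDEs were 1, 0.056 and 0.126 mg/kg/day for 1 week, so dose and duration cannot be told apart. Lymph nodes and dead cells had been removed, and no sort enriched the epithelium.

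The luminal compartment holds cells that carry the estrogen, progesterone and prolactin receptors and cells that mostly lack them and can form milk-secreting alveoli. Hormone-sensing cells do most of the sensing for the whole epithelium and pass the signal on through secreted factors. Amphiregulin (Areg) is the best known relay of estrogen, and RANKL (Tnfsf11), Wnt4 and calcitonin (Calca) are known products of the progesterone response.

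Markers were read in the pooled luminal cells before any comparison. Each of the 16 luminal markers checked was present. Epcam, Krt8 and Krt18 are among them and chose the cells. Of the other 13, all were detected, and 144 of 145 cells had a UMI of at least 1 and 138 of at least 2. All 4 adipocyte markers were at 0, as were 3 of 9 immune markers (Ptprc, Cd3e and Cd79a) and 3 of 6 endothelial markers (Pecam1, Cdh5 and Emcn), of which Ptprc and Pecam1 had been excluded by the rule. A UMI of at least 1 immune marker was found in 38 cells and of an endothelial marker in 9. None of the 12 basal, 6 skin keratinocyte and 5 Schwann markers was at 0, and 46, 54 and 34 cells held one. In the libraries the basal sum was 0 to 1055 CPM (counts per 1000000 luminal UMIs of a library), the keratinocyte sum 0 to 189 CPM, the immune sum 0 to 229 CPM and the Schwann sum 0 to 67.9 CPM, with the highest basal and immune sums in the E2 + P4 group. Among 24 alveolar markers, the milk genes Csn2, Csn1s1, Lalba and Wap and the secreted phosphoprotein gene Spp1 were at 0. Fibroblast markers were found in the most cells, with a UMI of at least 1 of 9 such genes in 135 of 145. Their summed level was 119 to 526 CPM in the 9 libraries outside the E2 + P4 group and 430 to 10268 CPM within it. The collagen genes Col1a1, Col1a2 and Col3a1 together stood at 5633 CPM in E2 + P4 2 and at 0 to 337 CPM in the other 11 libraries. Only 3 of the 21 luminal cells of E2 + P4 2 had no Krt14 UMI and at most 10 collagen UMIs.

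The cells were few and of unequal depth. The libraries held 41737900 to 109225000 UMIs (rounded), and the luminal cells carried 1019 to 159570 UMIs each. The 3 deepest cells of a library held 34.6% to 98.4% of its luminal UMIs in the 11 libraries with more than 1 cell, so a summed profile was carried by a handful of cells. Krt8 and Krt18 together ranged from 3 to 1799 UMIs per cell (median 31). Just inside the limit stood 3 cells with 3 UMIs and 7 cells with 4, and 11 cells with 1 or 2 UMIs fell just outside. A further 251 cells met the luminal rule with over 5% and up to 10% mitochondrial UMIs.

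Some luminal barcodes recurred across libraries. Of the 145, 41 were also present in another library. In 20 of these the barcode held 28.4 to 133 times as many UMIs elsewhere, with 1034 to 2226 UMIs where it was called luminal. The larger barcodes held 55274 to 210443 UMIs, of which 87 to 450 were Epcam. Whether the 20 are cells of their own was not tested. These 20 cells carried 1.07% of the luminal UMIs, and 18 of them were hormone-sensing. They were spread over no hormone 1 to 4 (4, 3, 1 and 1 cells), E2 1 (5 cells), E2 + P4 1 and 2 (2 cells each) and the intact library (2 cells). The luminal, hormone-sensing and cycling shares are given below with and without them, and other counts of cells only with them.

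**Figure D1:**
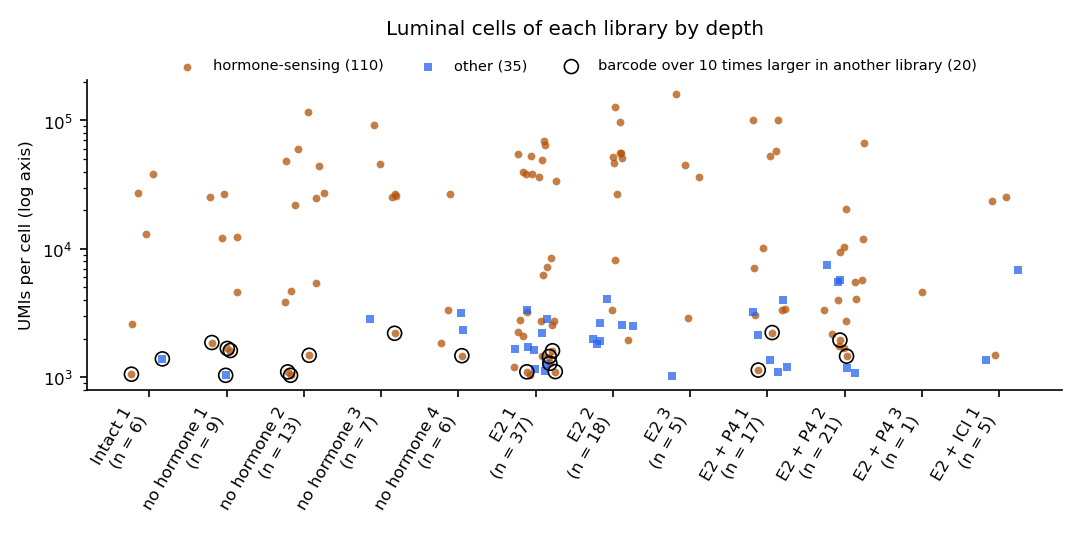
UMIs per luminal cell (log axis) in each library, with the number of cells in parentheses. Each point is a cell, with circles for hormone-sensing cells, squares for the others and rings around the 20 barcodes that were over 10 times larger in another library. E2 1 holds the most cells (37) and E2 + P4 3 holds 1, and no square lies above 7502 UMIs.

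Hormone-sensing cells made up 75.9% of the luminal cells (110 of 145). Prlr, the prolactin receptor, was detected in 104 cells, Pgr, the progesterone receptor, in 57 and Esr1, the estrogen receptor, in 45. All 3 receptors were found in 35 cells, and 43 cells had Prlr alone. Prlr was detected in 71.7% of luminal cells, against 3.73% of 32315 fibroblasts (cells with a Pdgfra UMI and none of Epcam, Ptprc or Pecam1) and 1.51% of 5044 immune cells (with Ptprc and none of the others). Esr1 was detected in 31.0% of luminal cells but in 49.4% of fibroblasts, so it does not separate the 2 cell types. Median depth per library was 2742 to 35993 UMIs for luminal cells, 14497 to 22769 for fibroblasts and 5454 to 9514 for immune cells. Depth also differed between the 2 luminal classes, with a median of 7735 UMIs in hormone-sensing cells and 1979 in the others. When each cell was thinned to 1000 UMIs, 90 of 145 cells still showed a receptor.

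The 2 luminal classes differed in more than the receptors that defined them. The values that follow are a description, since the same cells defined the classes. Slc12a2, a sodium, potassium and chloride cotransporter, was at 2500 CPM in hormone-sensing cells and 147 CPM in the others. At 1000 UMIs per cell it was found in 74 of 110 hormone-sensing cells and 5 of 35 others. Wnt4 stood at 279 CPM against 22.6 CPM, with a UMI in 69 of 110 cells against 2 of 35 at full depth. At 1000 UMIs per cell a UMI was found in 25 of 110 against 0 of 35. The other leading genes of the hormone-sensing cells were Tspan1, Adam10, Slc5a5 (the iodide transporter), Fgg, Cldn10, Piezo2 (a mechanosensitive channel) and Wnt5a, at 131 to 214 CPM against 11.3 CPM in the others. In each of these 7 genes the lower level rested on 1 UMI. At 1000 UMIs per cell they were found in 8 (Wnt5a) to 21 (Adam10) of 110 hormone-sensing cells and in 0 or 1 of 35 others.

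Some genes of the alveolar lineage stood higher in the other cells, though the share of cells with any alveolar marker was no larger. At 1000 UMIs per cell a UMI of any of the 24 alveolar markers was found in 45.7% of the others and 48.2% of hormone-sensing cells, while the summed level was 9257 and 2300 CPM. Kit, a receptor of alveolar progenitors, did not stand higher in the others, at 11.3 CPM against 11.4 CPM. At that depth it was found in 0 of 35 others and 3 of 110 hormone-sensing cells, too few to set the classes apart. The others also held hormone-sensing markers. At 1000 UMIs per cell a UMI of any of those 22, which include Pgr, Prlr and Esr1, was found in 94.3% of the others. It was found in 100% of hormone-sensing cells, and the summed levels were 9057 and 18627 CPM. Csn3, which encodes kappa-casein, was at 1121 CPM in the others and 65.4 CPM in hormone-sensing cells, and at equal depth in 8 of 35 against 8 of 110 cells. Wfdc18 stood at 1710 CPM against 350 CPM (11 of 35 and 15 of 110 cells at equal depth). Trf and Ltf, the iron-binding proteins transferrin and lactoferrin of milk, were at 793 and 702 CPM in the others against 109 and 11.4 CPM. For Ltf a single cell held 47 of the 62 UMIs. The highest ratios in the others belonged to genes of contractile and immune cells, and each of these rested on 1 or 2 cells: of 105 UMIs of Acta2, the smooth muscle actin of myoepithelial cells, 104 came from 1 cell, as did all 49 UMIs of Tagln and all 9 of Krt14. Whether such barcodes hold more than 1 cell was not tested.

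**Figure D2:**
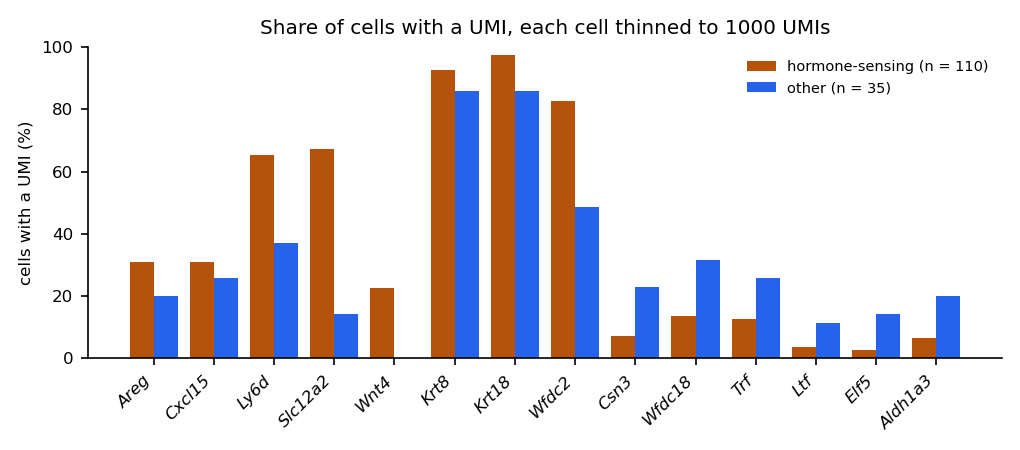
Share of hormone-sensing cells (n = 110) and other luminal cells (n = 35) with a UMI of each gene, in percent, after each cell was thinned to 1000 UMIs. Slc12a2, Wfdc2 and Ly6d were detected in more of the hormone-sensing cells, and Csn3, Wfdc18, Trf and Elf5 in more of the others.

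Compared with all other passing cells, the luminal cells stood apart in Ido1, Tph1, Sftpd, Upk3a, Spink8, R3hdml, Fgg, Ctsr, Gm12888 and D730048I06Rik. Ido1 was found in 76 of the 145 cells, R3hdml in 55, Tph1 in 43, Sftpd in 36 and Fgg in 32, but the other 5 genes in only 10 to 22. Ido1, which encodes the tryptophan-degrading indoleamine dioxygenase, was at 2454 CPM against 5.30 CPM. Tph1, the rate-limiting enzyme of peripheral serotonin synthesis, was at 360 CPM against 0.685 CPM. Both enzymes use tryptophan, and both varied with hormone, as given below.

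Whether hormones changed the number of luminal cells was asked over libraries. Luminal cells made up 0.192% to 0.263% of passing cells in the 4 libraries without hormone (median 0.217%). They made up 1.01%, 0.421% and 0.190% in E2 1, 2 and 3, and 0.389%, 0.277% and 0.0501% in E2 + P4 1, 2 and 3. The hormone libraries spanned the range of the others and went beyond it on both sides. The means were 0.389% ± 0.332 (SD, n = 6) with hormone and 0.222% ± 0.0332 (SD, n = 4) without, and the difference was within the spread (two-sided exact permutation test, p = 0.333). Without E2 1 the difference fell from 0.167 to 0.0433 percentage points. Without the 20 recurring barcodes it was 0.189 points (exact permutation test, p = 0.181).

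The hormone-sensing share of luminal cells was 8 of 9, 13 of 13, 6 of 7 and 4 of 6 in no hormone 1 to 4, 28 of 37, 11 of 18 and 4 of 5 in E2 1 to 3, and 11 of 17 and 16 of 21 in E2 + P4 1 and 2. The mean was 71.5% ± 8.15 (SD, n = 5) with hormone and 85.3% ± 13.9 (SD, n = 4) without. This difference of 13.8 percentage points did not exceed the spread (two-sided exact permutation test, p = 0.127). The class is set by UMIs of the 3 receptors, mostly of Prlr, whose level was itself lower in E2 + P4, so fewer cells of the class and less receptor RNA per cell cannot be told apart. The difference passed 0.05 when no hormone 4, with 6 cells, was left out (exact permutation test, p = 0.0357). At 1000 UMIs per cell the difference was 22.9 points (exact permutation test, p = 0.0635). Without the 20 recurring barcodes it was 16.5 points (exact permutation test, p = 0.143). It shrank to -8.71 points, hormone minus no hormone, with at least 5 UMIs of Krt8 and Krt18 (exact permutation test, p = 0.317) and to -3.72 with cells of up to 10% mitochondrial UMIs (exact permutation test, p = 0.444).

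Cells with a UMI of Mki67 or Top2a, both expressed by dividing cells, were counted as cycling. They numbered 0 of 9, 1 of 13, 1 of 7 and 0 of 6 in no hormone 1 to 4, and 3 of 37, 3 of 18 and 0 of 5 in E2 1 to 3. In E2 + P4 1 and 2 they numbered 8 of 17 and 6 of 21, above every other library. The intact, E2 + ICI and E2 + P4 3 libraries held none among 6, 5 and 1 cells, where so few cells allow shares of up to 45.9%, 52.2% and 97.5% (exact binomial intervals). Pooling E2 with E2 + P4, the cycling share was 20.1% ± 18.4 (SD, n = 5) against 5.49% ± 6.89 (SD, n = 4), a difference within the spread (two-sided exact permutation test, p = 0.159). With cells of up to 10% mitochondrial UMIs it was 22.2% ± 10.1 (SD, n = 5) against 7.41% ± 3.33 (SD, n = 4), which exceeded the spread (exact permutation test, p = 0.0159). At 1000 UMIs per cell the difference was 8.99 points (exact permutation test, p = 0.0794), and at 5000 UMIs, which left 4 and 2 libraries, it was 24.1 points (exact permutation test, p = 0.267), against 14.6 at full depth. Without the 20 recurring barcodes the cycling cells were 2 of 26 without hormone, 6 of 55 with E2 and 13 of 35 with E2 + P4. Mki67 was found in 1.19% of fibroblasts and 9.99% of immune cells.

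**Figure D3:**
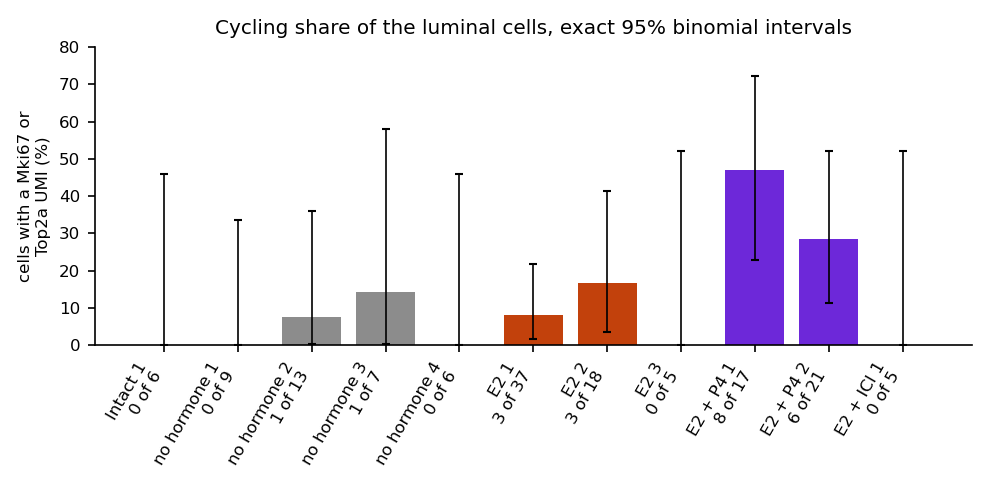
Share of luminal cells with a Mki67 or Top2a UMI in each library, in percent, with exact 95% binomial intervals that cover counting error only. E2 + P4 1 (8 of 17 cells) and E2 + P4 2 (6 of 21 cells) have the highest shares, and intervals of most libraries are wide because few cells were captured.

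Gene levels were compared on the summed luminal UMIs of each library, with hormone and PBDE diet in 1 model of 8 libraries and 3 residual degrees of freedom (edgeR, adjusted p under 0.05). No hormone 3 was kept out of the fit by design and E2 + P4 3 was dropped because it held 1 cell. The levels given below for E2 + P4 3 come from that 1 cell of 4650 UMIs, where a 0 says little. With E2 and E2 + P4 averaged, 99 genes were higher (1.92%) and 97 lower (1.88%) than without hormone, 3.8% of 5158 tested. The groups were also compared apart, 2 comparisons added after the data were seen. In the E2 libraries alone 97 were higher (1.88%) and 41 lower (0.795%), 2.68% in all. In E2 + P4 against no hormone, 166 were higher (3.22%) and 130 lower (2.52%), 5.74% in all. In E2 + P4 against E2, the progesterone comparison, 90 were higher (1.74%) and 126 lower (2.44%), 4.19% in all. The counts leaned on single libraries and on deep cells. Without no hormone 2 the hormone comparison called 18 genes (1 higher, 17 lower), E2 alone 13 (5 higher, 8 lower) and E2 + P4 against no hormone 28 (8 higher, 20 lower). E2 alone called 46 without E2 2 and 85 without E2 1, and E2 + P4 against no hormone 160 without no hormone 1. Among cells with no Krt14 UMI and at most 10 collagen UMIs, E2 + P4 1 was the only library of its group. The counts called there, given at the end, rest on it. Of the 196 genes of the hormone comparison 173 could be tested there, and 172 kept their sign. Of the 216 of the progesterone comparison 175 could be tested, and 172 kept their sign. These cells are part of those that picked the genes, so the kept signs are not separate support. Without E2 1 the progesterone comparison called 77. When no cell contributed more than 2000 UMIs, 518 genes could be tested. Of these, 4 and 12 were called in the 2 comparisons, and 1 in E2 alone. All 55 and 56 tested genes of the full calls kept their sign, but these UMIs were drawn from the same cells. The 251 cells with 5% to 10% mitochondrial UMIs are not in the main sums. They gave the same sign for 172 of 190 and 197 of 203 of the called genes they could test. Only 55 and 69 of these genes kept their call. In bulk sums, fewer cells of a kind and less RNA per cell cannot be told apart. The sums mostly describe hormone-sensing cells, which held 2631530 luminal UMIs against 88328 in the others. With hormone-sensing cells only, in 6 libraries, 254 and 301 genes were called in the 2 comparisons. Of the main calls 192 and 212 could be tested there, and 176 and 208 kept theirs. These are again cells of the main sums.

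Areg rose with estrogen, in each of the 3 diets. Areg (chr5, forward strand) encodes amphiregulin, the epidermal growth factor family ligand that relays estrogen to the ducts. It was at 80.1, 85.8, 145 and 0 CPM in no hormone 1 to 4, at 1281, 1416 and 3574 CPM in E2 1 to 3, and at 2713, 1153 and 430 CPM in E2 + P4 1 to 3. Every E2 and E2 + P4 library lay above every library without hormone, though E2 + P4 3 is 1 cell of 4650 UMIs. The log2 fold change was 4.63 ± 0.50 (SE; adjusted p = 0.00012) across both hormone groups and 4.50 ± 0.52 in E2 alone (adjusted p = 0.00025), while E2 + P4 differed from E2 by 0.26 ± 0.51 (adjusted p = 0.86). It was 968 CPM in the intact library. In E2 + ICI no Areg UMI was found in 5 cells, at least 34.5-fold below E2. Areg was detected in 31 of 60 E2 cells, 26 of 39 E2 + P4 cells and 11 of 35 cells without hormone, and in 19.8% of immune and 1.86% of fibroblast cells.

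The promoters of Areg, which rose with E2, and of Calca, which rose from E2 to E2 + P4, are shown. Both genes encode secreted factors and have been studied as targets of cyclic AMP signalling as well as of steroid hormones. They run from 250 bases before to 50 bases after the RefSeq gene start (GRCm38.p6) and are written 5′ to 3′ on the strand of the gene. Capitals mark TGACG on either strand, the core of the cyclic AMP response element TGACGTCA.
Areg, chr5:91139349-91139648, forward strand: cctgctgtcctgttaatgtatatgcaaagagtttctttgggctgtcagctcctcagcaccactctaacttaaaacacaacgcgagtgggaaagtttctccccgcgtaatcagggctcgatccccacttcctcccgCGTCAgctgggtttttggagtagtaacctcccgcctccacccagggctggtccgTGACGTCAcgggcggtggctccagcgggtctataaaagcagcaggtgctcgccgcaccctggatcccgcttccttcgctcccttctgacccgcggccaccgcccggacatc
Calca, chr7:114636308-114636607, reverse strand: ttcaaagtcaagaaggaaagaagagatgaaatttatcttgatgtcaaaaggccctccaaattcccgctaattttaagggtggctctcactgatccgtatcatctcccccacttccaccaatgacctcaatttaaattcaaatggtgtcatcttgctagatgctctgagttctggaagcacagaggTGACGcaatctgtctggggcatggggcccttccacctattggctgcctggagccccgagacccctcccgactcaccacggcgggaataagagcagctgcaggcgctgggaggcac
Areg held the full TGACGTCA 61 bases before its start, which 1.79% of 32851 promoters of this length hold. Calca held TGACG alone, 65 bases before its start, and 20.8% of promoters hold it. The palindromic estrogen response element GGTCANNNTGACC was in neither and is in 0.07% of promoters. Each held a GGTCA half-site on some strand, as do 40.5%. The progesterone receptor half-site TGTTCT was in neither and is in 19.0% of promoters. Promoters of other genes were read in the same way. TGACG was in both Tph1 windows and in a Prlr window, and in none of Cxcl15, Gpx3, Mki67, Pgr, Rspo1 and Top2a. A match describes these letters only.

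Gpx3 rose with Areg. Gpx3, the secreted glutathione peroxidase, was at 1019, 465, 1303 and 25.7 CPM in no hormone 1 to 4 and at 8679, 10079 and 5962 CPM in E2 1 to 3. In E2 + P4 1 to 3 it was at 1976, 4090 and 1075 CPM, so the last lies inside the range without hormone. The log2 fold change in E2 alone was 4.25 ± 0.50 (adjusted p = 0.00028). Without no hormone 2, Gpx3 lost its call across both hormone groups (2.97). Plac8, Tmsb10 and Ly6c1 also rose, and lost their calls across both hormone groups without the same library.

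Tph1 rose with E2 and was low again with E2 + P4. It was at 0, 5.53, 0 and 0 CPM in no hormone 1 to 4, at 697, 861 and 405 CPM in E2 1 to 3, and at 36.5, 17.2 and 0 CPM in E2 + P4 1 to 3. All 3 E2 libraries lay above every other library, the intact one included. Across both hormone groups the call was lost without no hormone 2 (8.23). The log2 change was 7.37 ± 0.58 in E2 alone (adjusted p = 4.8e-06) and -4.67 ± 0.46 from E2 to E2 + P4 (adjusted p = 3.8e-05). D730048I06Rik followed the same course, at 1157 and 1515 CPM in E2 1 and 2 but 12.3 CPM in E2 3, and at 0 in all 3 E2 + P4 libraries, at least 195-fold lower. Aoc1 (diamine oxidase) was at 24.5 to 412 CPM with E2, and no hormone 3, with 11 UMIs, lay above the lowest of these. Hp (haptoglobin) was at 25.7 to 454 CPM without hormone and 155 to 1423 CPM with E2, so these ranges overlap too. Both passed in E2 alone, by 5.72 ± 0.57 (adjusted p = 8.6e-05) and 2.34 ± 0.35 (adjusted p = 0.0015) on the log2 scale. From E2 to E2 + P4 they changed by -9.44 ± 0.81 and -3.63 ± 0.39. Aoc1 was at 0 in all 3 E2 + P4 libraries, so its fitted change depends on the prior count and is not a bound.

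Ido1 rose with E2 and was nearly absent with E2 + P4. It was at 1820, 1217, 863 and 1131 CPM in no hormone 1 to 4 and at 6323, 2678 and 3059 CPM in E2 1 to 3. In E2 + P4 1 to 3 it was at 8.43, 0 and 0 CPM. Every E2 library lay above all 4 libraries without hormone. E2 + P4 1 and 2 lay below all 4, as did the 0 of E2 + P4 3, which is 1 cell of 4650 UMIs. E2 alone raised it by 1.48 ± 0.26 on the log2 scale (adjusted p = 0.0048), and the change from E2 to E2 + P4 was -9.62 ± 0.52 (adjusted p = 5.4e-08). Over the pooled cells E2 was 756 times above E2 + P4 (counting interval 258 to 3665, from 3 UMIs). A UMI of Ido1 was found in 44 of 60 E2 cells, 23 of 35 cells without hormone and 2 of 39 E2 + P4 cells. Because the first comparison averages E2 and E2 + P4, it gave -3.34 ± 0.32 for this gene, which describes neither group.

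Progesterone raised Calca, the gene of calcitonin and of calcitonin gene-related peptide. It was at 160, 2.77, 45.4 and 0 CPM in no hormone 1 to 4 and at 1.83, 3.68 and 0 CPM in E2 1 to 3. It was at 1816, 2163 and 430 CPM in E2 + P4 1 to 3. All 3 E2 + P4 libraries, including the single cell of E2 + P4 3 with its 2 UMIs, lay above all other VCD libraries. The log2 change from E2 to E2 + P4 was 9.43 ± 0.98 (SE; adjusted p = 7.4e-05), and the pooled ratio was 853 with a counting interval of 291 to 4142, from 3 UMIs in E2. A UMI was found in 27 of 39 E2 + P4 cells and in 2 of 60 E2 cells. The intact library stood at 6689 CPM, but all 560 UMIs came from 2 of its 6 cells.

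**Figure D4:**
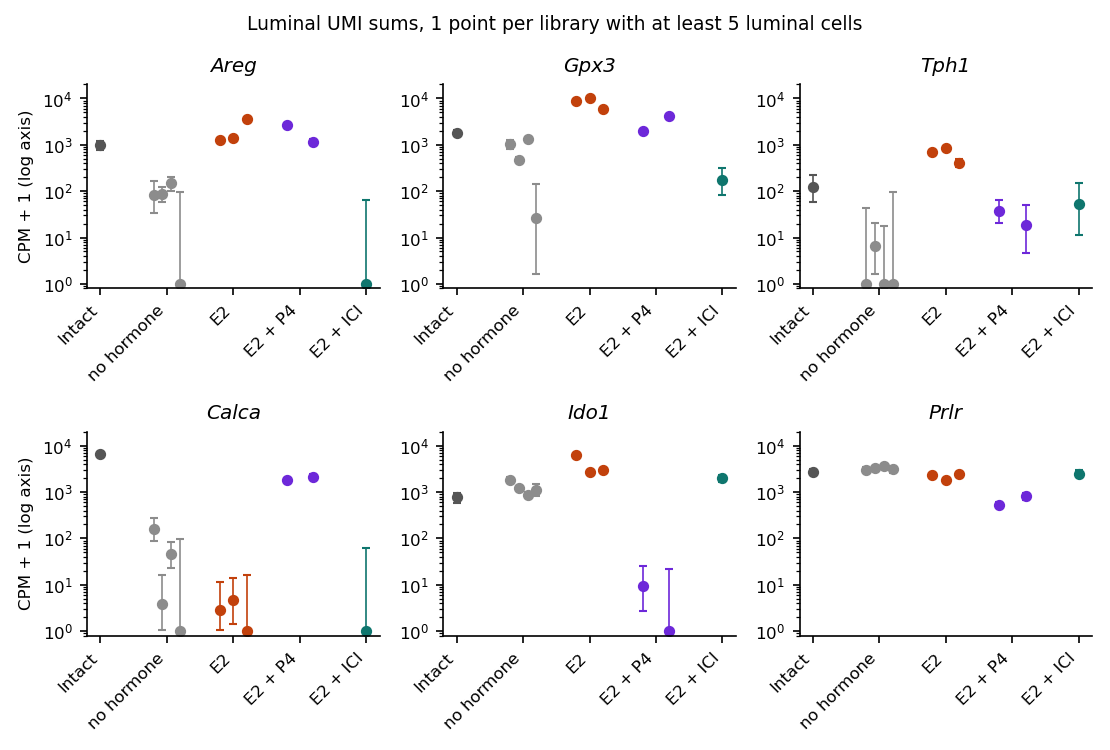
Level of hormone-responsive genes in the luminal cells of each library with at least 5 such cells, as CPM + 1 on a log axis, by group. Each point is a library and its bar the exact 95% Poisson interval for counting error. Areg is high in every E2 and E2 + P4 library shown, Gpx3 and Tph1 are highest in E2, Ido1 and Prlr are lowest in E2 + P4, and Calca is high in E2 + P4 and in the intact library.

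Fxyd2 and Ly6d were among the largest falls with progesterone. Fxyd2, a regulatory subunit of the sodium pump, was at 1026 to 1671 CPM without hormone and at 1043, 822 and 1059 CPM in E2 1 to 3, and at 22.5, 11.5 and 0 CPM in E2 + P4 1 to 3 (log2 change from E2 of -5.58 ± 0.43; adjusted p = 2.5e-06). Ly6d, a surface protein of epithelial cells, was at 5148 to 9668 CPM without hormone, 3605, 3915 and 8952 CPM in E2 1 to 3, and 75.9, 258 and 0 CPM in E2 + P4 1 to 3. Neither gene overlapped between E2 + P4 and the other VCD libraries, though the 0 of E2 + P4 3 is that of 1 cell of 4650 UMIs. Averaged over E2 and E2 + P4, Slc5a5 and the long noncoding RNA AW112010 were lower than without hormone. Glul, Nupr1 and Lgals3 also fell from E2 to E2 + P4. Metallothioneins moved the other way: Mt2 was at 36.8 to 155 CPM in the 7 libraries of the no hormone and E2 groups and at 753, 809 and 215 CPM in E2 + P4 1 to 3 (log2 change 3.57 ± 0.42; adjusted p = 0.00014). B2m, the light chain of class I antigen presentation, was at 763 to 968 CPM in E2 and 2339, 3390 and 1290 CPM in E2 + P4, with a log2 change of 1.62 ± 0.32 (adjusted p = 0.0086) that lost its call without E2 1 (1.66) or E2 2 (1.36). It was the only gene called in this comparison among 14 tested of the interferon and antigen presentation list, against 4.19% of all genes.

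**Figure D5:**
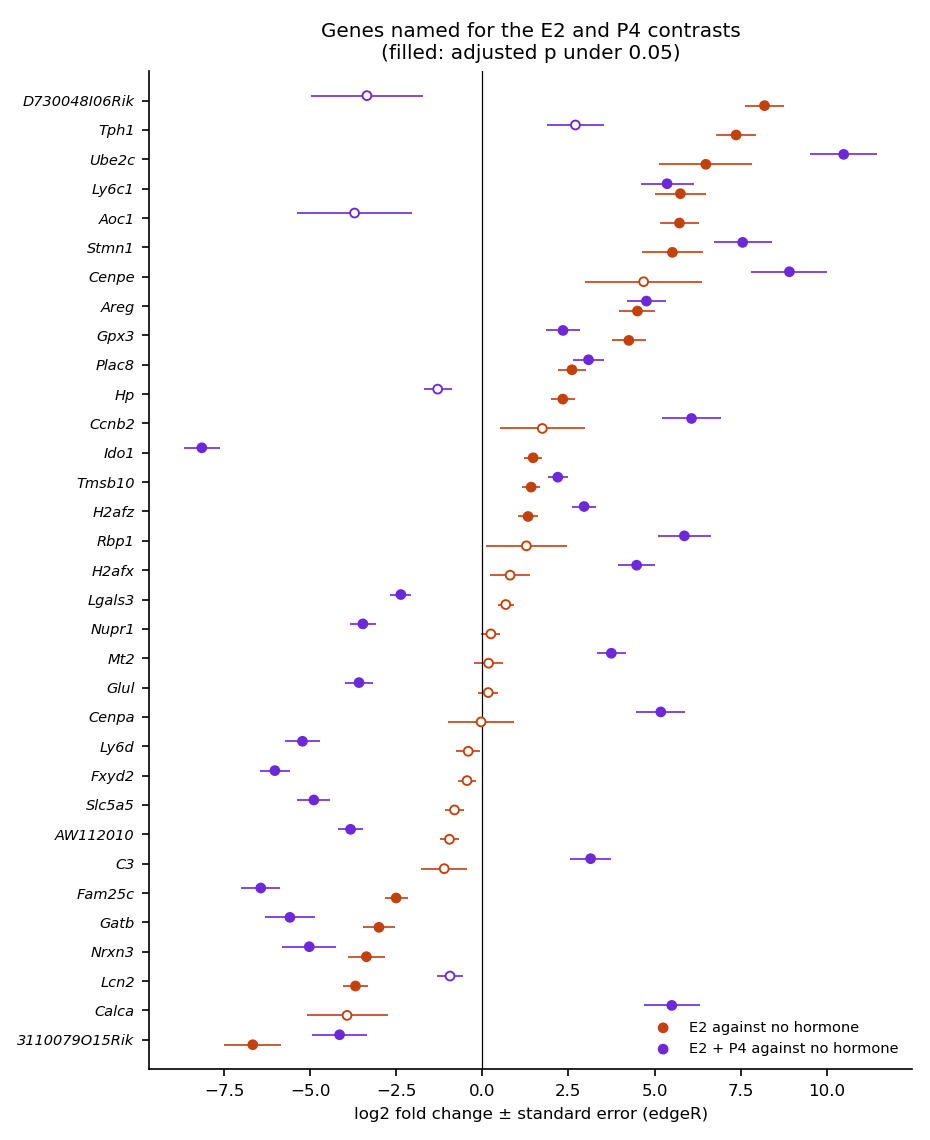
Log2 fold change ± standard error against no hormone, for E2 alone and for E2 + P4, of the genes with the smallest adjusted p in the 2 main comparisons. Filled points have an adjusted p under 0.05. Areg and Gpx3 are raised in both groups, while Ido1 and Tph1 part between them.

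The receptors themselves were then examined. Prlr was at 3023, 3317, 3638 and 3086 CPM in no hormone 1 to 4, at 2354, 1810 and 2450 CPM in E2 1 to 3 and at 537, 815 and 215 CPM in E2 + P4 1 to 3. The 3 groups were ordered without overlap, with E2 + P4 3 being 1 cell of 4650 UMIs. E2 alone differed from no hormone by -0.48 ± 0.24 on the log2 scale (adjusted p = 0.43) and E2 + P4 from E2 by -1.69 ± 0.30 (adjusted p = 0.0037). Pgr was at 51.4 to 132 CPM without hormone, at 161, 186 and 229 CPM in E2 1 to 3, and at 22.5, 45.9 and 0 CPM in E2 + P4 1 to 3. It changed by -2.48 ± 0.43 from E2 to E2 + P4 (adjusted p = 0.0036), and its change in E2 alone of 1.00 ± 0.35 did not pass (adjusted p = 0.19). Esr1 was at 34.3 to 58.1 CPM without hormone, 38.4 to 106 CPM with E2 and 0 to 51.6 CPM with E2 + P4, ranges that overlap, and passed in no comparison (adjusted p = 0.49 for E2 + P4 against E2). Both receptors were low in E2 + P4 2, with its collagen, and in E2 + P4 1, whose collagen sum was 337 CPM. The call for Prlr in E2 + P4 against E2 was lost without E2 1 (-1.46) and its sign turned without cells over 2 times the median depth (0.19). Pgr lost its call among cells with no Krt14 UMI and at most 10 collagen UMIs, at a log2 change of -2.90. In that fit E2 + P4 1 was the only library of its group.

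The gene lists had been chosen with earlier results of these data known and are given as counts. Of 28 estrogen receptor targets, 17 were tested, with a median log2 change of 0.55 in E2 alone (0.04 over all genes), -0.24 across both hormone groups (0.03 over all genes) and -0.98 from E2 to E2 + P4 (-0.02 over all genes). Areg alone of the 17 rose across both hormone groups (against 1.92% of all genes). In E2 alone Areg and Ctsd (cathepsin D) rose (2 of 17, against 1.88%) while Igfbp5 and Cited1 fell (2 of 17, against 0.795%). Pgr, Xbp1, Krt19 and Tgm2 were lower in E2 + P4 than in E2 (4 of 17, against 2.44%). Of 20 progesterone receptor targets, 12 were tested, with a median of 0.87 from E2 to E2 + P4. Calca, Fkbp5 and Rspo1 were higher (3 of 12, against 1.74% of all genes) and Prlr lower (1 of 12, against 2.44%) in E2 + P4 than in E2. Fkbp5, a chaperone of steroid receptors, was at 0 to 11.4 CPM in the no hormone and E2 libraries and at 50.6, 40.2 and 0 CPM in E2 + P4 1 to 3. Rspo1, a Wnt agonist, was at 0 to 4.09 CPM in the former and 36.5, 40.2 and 0 CPM in the latter. Single libraries decided some of these calls. Fkbp5 and Rspo1 lost theirs without E2 + P4 2 (3.93 and 6.85) or no hormone 4 (3.89 and 6.69), Xbp1 without E2 1 (-2.13), E2 2 (-1.45) or E2 + P4 1 (-1.41), and Krt19 without any 1 of 6 libraries, at -1.42 to -0.83. Tnfsf11, the RANKL gene, was too low to test, at 64.7 and 22.9 CPM in E2 + P4 1 and 2, 11.4 CPM in no hormone 1 and 0 in the others. Wnt4 was at 231 to 441 CPM without hormone and 152 to 215 CPM with E2 + P4, and was not called (adjusted p = 0.54).

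Of 34 paracrine ligands, 15 were tested, with a median of -0.02 across both hormone groups. Areg and Il33 rose across both hormone groups, and Ptn, Gas6, Csf1 and Hbegf fell (6 of 15, against 3.8% of all genes). Ptn, the heparin-binding growth factor pleiotrophin, was at 8163, 7192, 9246 and 2468 CPM in no hormone 1 to 4 and at 2488, 1559 and 1468 CPM in E2 1 to 3 (log2 change -1.72 ± 0.24; adjusted p = 0.00075). Only no hormone 4 lay within the range of the E2 libraries, and without no hormone 2 the call was lost (-1.41). Hbegf, another ligand of the epidermal growth factor receptor, was at 0 to 133 CPM without hormone and 5.49 to 22.1 CPM with E2, so these ranges overlap. Without no hormone 1 the calls of Il33 (7.05), Hbegf (-2.02), Csf1 (-1.60) and Gas6 (-1.40) were lost, without no hormone 2 those of Csf1 (-2.18) and Gas6 (-2.18), and without E2 1 or E2 2 that of Csf1 (-2.01 and -1.38). The 9 receptor tyrosine kinase and Notch genes tested were not called across both hormone groups or from E2 to E2 + P4. Over all genes 3.8% and 4.19% were, so this count does not set the list apart.

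Part of the cell cycle genes rose. Of 35 listed, 29 were tested, and 17 rose across both hormone groups with a median log2 change of 3.64, against 1.92% and 0.03 over all genes. Mki67, the proliferation antigen, was at 0 to 4.54 CPM without hormone, at 14.6, 75.4 and 0 CPM in E2 1 to 3 and at 163, 338 and 0 CPM in E2 + P4 1 to 3. Top2a, which untangles DNA before division, was at 0 in all 4 libraries without hormone, at 20.1, 149 and 0 CPM in E2 1 to 3 and at 290, 321 and 0 CPM in E2 + P4 1 to 3. The pooled E2 + P4 cells were at least 70.2-fold above no hormone for Top2a, and the E2 cells at least 16.3-fold. In E2 alone 6 of 29 rose, against 1.88% of all genes. From E2 to E2 + P4, 14 of 29 rose, with Mki67 at 2.70 ± 0.44 (log2; adjusted p = 0.0027), against 1.74% of all genes. The calls across both hormone groups rested on no hormone 2, without which all 16 of the 17 that could be tested were lost, Mki67 (6.46) among them. Of the 17, 7 were lost without no hormone 1, 7 without E2 2 and 6 without E2 + P4 1. Of the 14 progesterone calls, 10 were lost without E2 1, Mki67 (2.20) among them, and 8 without E2 + P4 1. E2 3 and E2 + P4 3 held no UMI of either gene, in 5 cells and 1 cell.

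Part of the alveolar markers fell with E2 alone. Of 24 listed, 11 were tested, and Csn3, Trf, Ltf, Plet1, Lcn2 and Aldh1a3 were lower in E2 alone (6 of 11, against 0.795% of all genes), with a list median of -2.42. The same 6 were lower across both hormone groups (against 1.88% of all genes), with a median of -1.74. In E2 + P4 against no hormone, Csn3 and Plet1 were lower (2 of 11, against 2.52% of all genes) and the median was -0.94. From E2 to E2 + P4 the median was 1.46 (-0.02 over all genes), and Aldh1a3, Lcn2 and Rspo1 were higher (3 of 11, against 1.74%). Lcn2, the iron-binding lipocalin, was at 191 to 951 CPM without hormone and at 76.9, 64.4 and 24.5 CPM in E2 1 to 3, without overlap, and at 441, 356 and 0 CPM in E2 + P4 1 to 3. It fell by 3.68 ± 0.36 on the log2 scale in E2 alone (adjusted p = 5.9e-05) and was higher by 2.75 ± 0.38 in E2 + P4 than in E2 (adjusted p = 0.00041). Plet1 was at 304 to 1294 CPM without hormone and 106 to 243 CPM with E2. Across both hormone groups, Csn3 lost its call without no hormone 1 (-1.51) or no hormone 2 (-3.41), and Ltf without no hormone 4 (-2.25) or E2 3 (-2.22). These values depended on which cells were summed: among cells with 5% to 10% mitochondrial UMIs the hormone change was 0.55 for Csn3, 0.16 for Trf and 0.87 for Ltf (log2), and Lcn2 reached 0.23 without cells over 2 times the median depth. Without those deep cells the change of Lcn2 from E2 to E2 + P4 was -0.28. The milk protein and lipid list holds 3 of the same genes, and its other 7 tested genes were not called across both hormone groups, against 3.8% of all genes. Scd2, a fatty acid desaturase, was higher in E2 alone, 1 of 10 tested against 1.88% of all genes.

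Of 21 immediate early and heat shock genes, Fosb, Jund, Atf3 and Klf6 were lower across both hormone groups (4 of 21, against 1.88% of all genes). Atf3 was lower in E2 + P4 than in E2 (1 of 21, against 2.44% of all genes). All 4 lost the first call without no hormone 2, and Jund and Klf6 each lost it without any 1 of 6 of the 8 libraries. Krt19, Cldn4 and Cldn8 of 19 tested keratin and junction genes were lower in E2 + P4 than in E2, against 2.44% of all genes. Cldn4 lost its call without E2 2 (-1.68), Cldn8 without E2 1 (-1.99) or E2 + P4 1 (-2.14), and Atf3 its progesterone call without E2 1 (-1.61). No gene of 12 tested in the xenobiotic response list was called across both hormone groups, against 3.8% of all genes. Gclc, the first enzyme of glutathione synthesis, was lower in E2 + P4 than in E2 (-2.71 ± 0.62; adjusted p = 0.02), 1 of 12 against 2.44% of all genes. This call was lost without no hormone 2 (-2.77) or E2 2 (-2.65). Of 19 protein folding and secretion genes, Xbp1 alone was called, lower in E2 + P4 than in E2 (1 of 19, against 2.44% of all genes). Among fibroblast markers, 5 of 7 tested (Col1a2, Col3a1, Lum, Dpt and Pi16) were higher in E2 + P4 than in E2, against 1.74% of all genes. All 5 were far higher in E2 + P4 2 (499 to 2914 CPM) than in E2 + P4 1 (16.9 to 191 CPM), where Col1a2 and Col3a1 still lay above every E2 library, at 78.7 and 191 CPM. Without E2 + P4 2, which left E2 + P4 1 as the only library of its group, 214 of the 216 progesterone calls could be tested. All 214 kept their sign, in libraries that were part of the main fit.

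The hormone response, averaged over E2 and E2 + P4, was set against that of the fibroblasts of the same libraries. The luminal minus fibroblast difference passed the test with a positive sign for 85 genes (0.595%) and a negative sign for 105 (0.735%), 1.33% of 14283. The sign does not show in which cell type a gene moved. The luminal sums of E2 + P4 2, with collagen at 5633 CPM, were in this fit, and Col1a1 was among the positive differences. Areg differed by 3.63 ± 0.48 (log2; adjusted p = 5.6e-11) and Gpx3 by 2.87 ± 0.39 (adjusted p = 1.2e-10). Ptn differed by -2.76 ± 0.37 and Plet1 by -3.08 ± 0.37. Fxyd2 differed by -3.61 ± 0.40 and Ly6d by -3.48 ± 0.40, averages over E2 libraries that overlap those without hormone and E2 + P4 libraries far below both. The difference from fibroblasts was not tested for E2 alone. For Pgr the difference was -0.52 ± 0.42 and did not pass (adjusted p = 0.86).

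Few genes passed the test for the PBDE diets. For the low dose, edgeR called 0 of 5158 genes (0%), with 197 at an unadjusted p under 0.05, and DESeq2 called 0. For the high dose, 6 genes were higher (0.116%) and 5 lower (0.0969%), 0.213% in all. Gadd45b, a stress-induced regulator of growth arrest, was at 51.4 CPM in no hormone 4 and 564 CPM in E2 3, against 14.7 to 34.3 CPM in the other no hormone and E2 libraries of the fit, but at 19.7 and 207 CPM in E2 + P4 1 and 2 and, outside the fit, 68.1 CPM in no hormone 3 and 645 CPM in E2 + ICI, none of them on high PBDEs. The level in no hormone 4 was 2 UMIs. Gdf15, a stress cytokine, was at 0 CPM in no hormone 4 and 209 CPM in E2 3, and at 50.6 CPM in E2 + P4 1 on the control diet. Sprr2a3, Gm12888, Lrrc26 and Mum1l1 were the other genes that were higher, and D730048I06Rik, AY036118, Aoc1, Hp and Tmprss6 were lower. The high dose was represented by no hormone 4 with 6 cells and E2 3 with 5. Without E2 3 the count was 2, and without no hormone 2 it was 0.

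The E2 + ICI and intact libraries had 1 library each, with 5 and 6 luminal cells, and no test was made. With ICI, Gpx3 was at 170 CPM (10 UMIs), 51.6 times below pooled E2 (counting interval 28.0 to 108). Tph1 was at 50.9 CPM, below E2 by 4.76 to 67.8 times (counting interval, from 3 UMIs). Ido1 was at 1968 CPM, Prlr at 2511 CPM, Fxyd2 at 3104 CPM and Ly6d at 7277 CPM, all above the E2 + P4 libraries. The intact library held Areg at 968 CPM and Calca at 6689 CPM together with Prlr at 2711 CPM and Ido1 at 764 CPM. Ly6d was low there, at 287 CPM, outside the 3605 to 9668 CPM of the no hormone and E2 libraries. These intervals cover counting error only.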

How the data were processed

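Mammary gland cells were profiled with Chromium v3 chemistry. As deposited, values are UMI counts that the authors obtained with Cell Ranger 3.1.0 (build mm10) and did not normalize. The labels and the methods name different sequencers. The labels do not say whether the libraries pool animals, so spread between libraries may be partly technical. The members and gene lists were chosen with earlier results of these data known. Counts of the luminal cells were summed per library and tested with edgeR 4.0.16 (quasi-likelihood, TMM, Benjamini-Hochberg adjustment, threshold 0.05, R 4.3.3) in libraries with at least 5 luminal cells, after edgeR's filter on low counts. DESeq2 1.42.0 was an alternative. Shares were compared by exact permutation over libraries. No doublet caller was applied. The fit was tested on simulated data with 200 genes changed. It found 6% at a log2 change of 1, 72.5% at 2 and 87% at 3 in the E2 comparison. In the P4 comparison it found 0%, 65.5% and 91.5%. The counts were drawn from the fit's own estimate of spread, without a diet effect. These percentages therefore describe the model and do not give the power in these sums. Intervals are exact at 95%. Named genes were the 10 with the smallest adjusted p in each direction of a contrast, listed genes of at least 50 CPM or called, and the 10 with the largest ratio between cell classes. Where a group was at 0, folds used a floor of 3 UMIs. A gene that the rule named is not reported here.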

Additional observations from a re-analysis of the deposited data

Results flagged for a closer look

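In the 4 libraries without hormone, 21 values (shares of cells and gene levels) were tested for a library that stood apart (Dixon's test, which flags about 1 in 20 groups by chance), and 3 did. Tph1 was at 5.53 CPM (2 UMIs) and Rspo1 at 2.77 CPM (1 UMI) in no hormone 2, the deepest of the 4. Both were at 0 in the other libraries, where any UMI in the fourth would have stood apart. Csn3 was at 1111 CPM in no hormone 1, against 85.8 to 154 CPM.

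The hormone response, averaged over E2 and E2 + P4, differed between luminal cells and fibroblasts for 190 genes by the interaction test, and those with the smallest adjusted p in each direction follow as luminal minus fibroblast log2 differences. The sign does not show in which cell type a gene moved. Positive differences were Mgp 5.52, Crym 4.90, Ly6c1 4.80, Dut 3.89, Areg 3.63, Tcn2 2.98, Mt2 2.88, Gpx3 2.87 and Mt1 2.82. Negative differences were Hs3st6 -5.46, Serinc2 -4.77, Dbp -4.61, Fam25c -4.60, Gatb -4.08, Fxyd2 -3.61, Ly6d -3.48, Plet1 -3.08, Ptn -2.76 and Cited1 -2.75. These averages need not describe either group: for Tcn2, Gpx3, Dut, Mt1, Mt2, Serinc2, Fam25c, Gatb, Fxyd2 and Ly6d, no E2 + P4 library with at least 5 luminal cells lay within the range of the E2 or of the no hormone libraries.

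The intact library, which enters no test, held Calca at 6689 CPM, above the 0 to 160 CPM of the libraries without hormone.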

How the results depend on the processing

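The labels carry no replicate numbers, but the hormone groups share the 3 diets, and diet was a term of the luminal fits. Without it the hormone comparison called 136 genes and the progesterone comparison 245. Compared within diets, an alternative chosen after the data were seen, the luminal, hormone-sensing and cycling shares differed by 0.157, -12.2 and 14.2 points (exact permutation within diets, p = 0.444, 0.278 and 0.222, where the smallest p was 0.037 for the first and 0.0556 for the others). The cause of each change below was not tested, except where fewer genes or libraries remained. The luminal share difference ranged from 0.0433 to 0.235 points, the hormone-sensing share from -20.0 to -8.89 and the cycling share from 7.84 to 19.6 when single libraries were left out. The hormone-sensing difference passed the threshold without no hormone 4 (-20.0, exact permutation test, p = 0.0357), and the cycling difference passed with cells of up to 10% mitochondrial UMIs (14.8, exact permutation test, p = 0.0159), where the hormone-sensing difference was -3.72.

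In the hormone comparison 196 genes became 109 with DESeq2, 354 with no filter beyond 10 UMIs, 51 with at least 10 luminal cells a library, 292 (92 higher, 200 lower) with the collagen limit, 453 with up to 10% mitochondrial UMIs, 129 in the cells with 5% to 10%, 4 with cells thinned to 2000 UMIs, 296 in E2 + P4 alone and 0 without cells over 2 times the median depth (60 at an unadjusted p under 0.05, of 589 tested), and 18 to 351 when single libraries were left out. In the progesterone comparison 216 became 109 with DESeq2, 463 with no filter, 134 in cells with no Krt14 UMI and at most 10 collagen UMIs, 489 with up to 10% mitochondrial UMIs, 12 with thinned cells and 0 without the deepest cells (28 unadjusted), and 77 to 272 with single libraries left out. For the low dose 0 became 60 with no filter, 2 with at least 10 cells, 44 with the collagen limit, 2 with up to 10% and 1 with 5% to 10% mitochondrial UMIs, and 0 to 50 with single libraries left out. For the high dose 11 became 2 with DESeq2, 7 with RLE normalization, 62 with no filter, 0 without hormone in the model, 43 with the collagen limit, 17 with up to 10% mitochondrial UMIs, 7 without the recurring barcodes, 0 in each of the 3 fits without the deepest cells, with thinned cells and with 5% to 10% mitochondrial UMIs, and 0 to 90 with single libraries left out. The difference from fibroblasts became 72 with DESeq2 and 79 to 220 with single libraries left out. With DESeq2, E2 alone went from 138 to 72 and E2 + P4 against no hormone from 296 to 140. With single libraries left out they ranged from 13 to 318 and 28 to 368. Without the 20 recurring barcodes the first 2 counts were 192 and 217. The other luminal cells alone could not be fitted, and the high dose had no library with at least 10 cells. The collagen limit left 6 libraries and 1 residual degree of freedom. E2 + P4 1 was then the only library of its group, and no hormone 4 the only one on the high dose. Thinning, the mitochondrial window, the recurring barcodes, E2 alone and E2 + P4 alone were chosen after the data were seen.

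Changes of sign were seen in the hormone comparison without the deepest cells for Lcn2 (0.23) and Gas6 (0.23), and in cells with 5% to 10% mitochondrial UMIs for Ltf (0.87), Csn3 (0.55), 3110079O15Rik (0.38), Klf6 (0.34), Hbegf (0.25) and Trf (0.16). In the progesterone comparison they were seen without the deepest cells for Prlr (0.19) and Lcn2 (-0.28), and for the high dose for D730048I06Rik with the collagen limit (0.074), Gm12888 with 5% to 10% mitochondrial UMIs (-0.38) and Mum1l1 without E2 3 (-0.50, against 3.16 without no hormone 2).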
